A study of Rattus norvegicus with 12 samples.

Results

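The HSP70 family of chaperones was followed in primary rat atrial fibroblasts treated with angiotensin II alone or with a mitochondrial-derived peptide. The family was taken as the rows of the count and FPKM tables with the symbols Hspa1b, Hspa1l, Hspa2, Hspa4, Hspa5, Hspa8, Hspa9, Hspa12a, Hspa13 and Hspa14, which made 10 of 22850 rows, and all 10 passed the filter on low counts in every comparison. The cells came from the atria of Sprague-Dawley rats aged 1 to 3 days and were enriched by differential adhesion, a step in which fibroblasts settle before cardiomyocytes and which does not sort them from other adherent cells. Every group received AngII (angiotensin II, a peptide hormone that activates fibroblasts) at 1 μmol/L for 48 h in medium with 2% FBS. The AngII group received nothing else, the AngII+HNG group received HNG, an analogue of humanin, at 10 μmol/L starting 1 h before AngII, and the AngII+MOTS-c group received MOTS-c at 5 μmol/L on the same schedule. Each group held 4 libraries, 12 in all, and no cells without AngII were used here. In each treatment the library names of replicates 2 and 3 share a number, and although the study calls the libraries of a group biological replicates, neither it nor the labels say which came from separate cell preparations, so p-values measure the spread between these libraries.

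HSP70 proteins bind exposed hydrophobic stretches of unfolded proteins and release them in a cycle driven by ATP. J-domain proteins deliver clients and trigger ATP hydrolysis, and nucleotide exchange factors reset the cycle by releasing ADP. Separate family members serve the cytosol, the endoplasmic reticulum (ER) and the mitochondria. Some are made at all times and others are induced by heat or by unfolded protein. In heart fibroblasts this machinery handles, among other clients, the secretory load of matrix proteins.

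Between 27960586 and 38322354 reads were counted per library, and the 10 family rows held 0.334% to 0.358% of them, with overlapping ranges in the 3 groups. The 11 fibroblast markers were present in every group, at a summed 63618 to 71782 CPM (reads relative to the TMM-scaled total of the library). Markers of other cells were present as well. The 12 cardiomyocyte markers summed to 6887 to 9050 CPM with overlapping groups, and none of them was at 0 in any group. Of these 12, 9 had higher and 3 lower means with HNG than with AngII. Among the lower was Myh7 (log2 fold change -0.15, edgeR adjusted p = 0.142). Only Tnni3 passed at an adjusted p-value below 0.05, and it was higher (0.43, edgeR adjusted p = 0.0131). Of the 11 fibroblast markers 8 had higher and 3 lower means. Tcf21 (0.28, edgeR adjusted p = 0.00746) and Thy1 (0.17, adjusted p = 0.0220) passed, both higher. Over all tested genes 5.98% passed. The 14 macrophage markers summed to 288 to 346 CPM with AngII, 384 to 504 CPM with AngII+HNG and 282 to 342 CPM with AngII+MOTS-c, and 4 of the 13 tested were higher with HNG than with AngII at an adjusted p-value below 0.05, beside 5.98% of all tested genes. These were Lyz2, a lysozyme (log2 fold change 0.75, edgeR adjusted p = 0.000262), Cd68 (0.69, adjusted p = 0.00343), Mrc1, the mannose receptor (0.55, adjusted p = 0.00568), and Ptprc, the leukocyte antigen CD45 (0.37, adjusted p = 0.0257). Of the 13, 3 had lower means, Adgre1 at -0.36 (edgeR adjusted p = 0.185), C1qc at -0.43 (0.255) and C1qb at -0.05 (0.916), and none of these passed. The 10 smooth muscle and pericyte markers summed to 7270 to 7591, 5757 to 6352 and 6866 to 7502 CPM in the same order. With HNG against AngII 9 of 10 had lower means. Of the 10, 5 were lower at an edgeR adjusted p-value below 0.05, beside 5.98% of all tested genes. The 10 endothelial markers summed to 133 to 146, 144 to 153 and 133 to 141 CPM. The 6 Schwann cell markers summed to 10.2 to 13.0 CPM over all libraries. The part of these shifts in the values below was not tested, and in bulk RNA fewer cells of a type and less RNA per cell cannot be told apart.

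The family spanned a range from 607 to 0.515 FPKM (fragments scaled by gene length and library size, a level per gene length). Hspa8, the constitutive cytosolic chaperone that also strips clathrin coats from vesicles, was the most abundant at a mean of 607 FPKM over the 12 libraries, with a range of 544 to 661. It ranked 93rd among the 18385 rows with any counts and held 45.7% of the family's FPKM. Hspa5, the ER chaperone known as BiP, followed at 383 FPKM (359 to 401). Hspa9, the mitochondrial member mortalin, which pulls imported proteins into the matrix, stood at 207 FPKM (200.4 to 213.7). Hspa4, an HSP110-type relative that acts as a nucleotide exchange factor for the other members, stood at 81.5 FPKM (74.1 to 84.3).

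Lower levels were found for the remaining rows. Hspa13, an ER-associated member without a peptide-binding domain, had 19.2 FPKM (17.5 to 21.0). Hspa14, a partner of the ribosome-associated J-domain protein, had 16.4 FPKM (14.5 to 18.02). The ranges of these neighbours overlapped, the only neighbouring pair for which this was so. Hspa2, best known for its role in male germ cells, had 8.47 FPKM (6.73 to 9.64), and the row Hspa1b had 3.12 FPKM (2.35 to 3.80). Hspa12a, an atypical and distant member, had 0.942 FPKM (0.780 to 1.09). Hspa1l, a close relative of the stress-inducible genes that is abundant in testis, was lowest at 0.515 FPKM (0.325 to 0.752) and ranked 12748th of 18385. It also varied most, with a coefficient of variation of 27.5% over the 12 libraries against 2.19% for Hspa9.

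**Figure D1:**
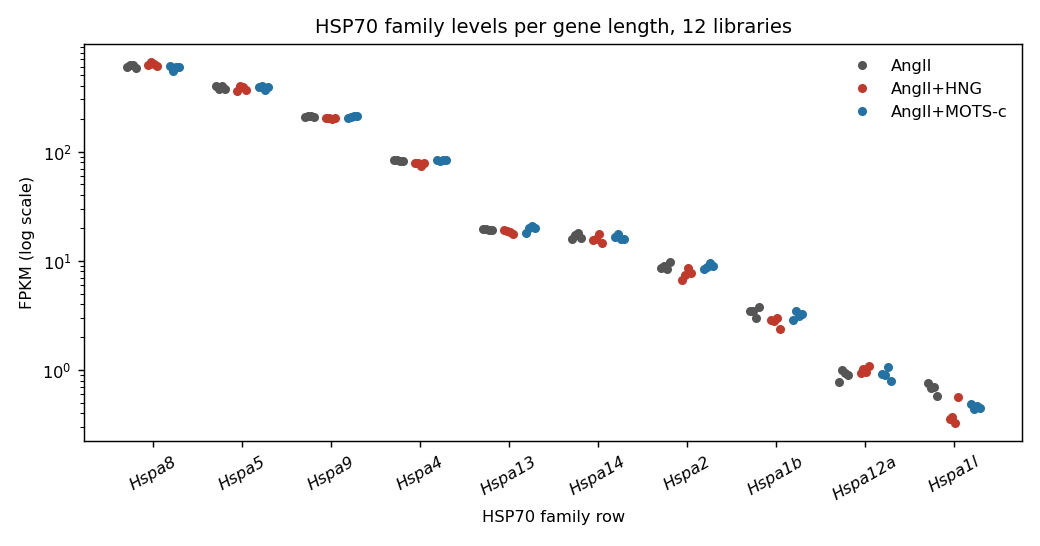
FPKM of the 10 HSP70 family rows on a log axis, ordered by mean level, with 1 point per library and a color per treatment (4 libraries each). Levels run from 607 FPKM for Hspa8 to 0.515 FPKM for Hspa1l, and Hspa1l has the widest relative spread.

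Promoter letters were read for the members because some of the family are induced by heat or by unfolded protein. RefSeq (assembly GRCr8) gave a window of the 250 bases before the transcription start for 8 of the 10 symbols, and none for Hspa1b or Hspa12a. The heat shock element was searched as GAANNTTCNNGAA, the ER stress element as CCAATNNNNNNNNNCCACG and the core of the cyclic AMP response element as TGACGT, each on both strands, and no match of one motif overlapped another in the sequences shown. Of 33469 windows in the rat table, 0.663% held the heat shock element, 0.0657% the ER stress element and 6.95% TGACGT. The window of Hspa8 held 2 heat shock elements, beginning 213 and 55 bases before the start and shown in capitals, the second on the opposite strand. The window of Hspa5 held 1 ER stress element, beginning 43 bases before the start and shown in capitals, and TGACGT at 135 bases. In the window of Hspa1l, TGACGT began 84 bases before the start, and 30 bases around it are shown. Hspa14 held TGACGT at 178 bases, and no match was found in the windows of Hspa2, Hspa4, Hspa9 and Hspa13. The window of Hspa1a, the gene whose length the row Hspa1b fits, held 0 matches to any of the 3 motifs as spelled here. A match describes letters only.
Hspa8, chr8:50080264-50080513, plus strand: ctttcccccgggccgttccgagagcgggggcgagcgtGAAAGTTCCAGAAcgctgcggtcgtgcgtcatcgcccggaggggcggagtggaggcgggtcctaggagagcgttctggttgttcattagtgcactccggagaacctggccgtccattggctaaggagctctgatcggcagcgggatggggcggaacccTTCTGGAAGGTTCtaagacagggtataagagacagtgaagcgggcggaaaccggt
Hspa5, chr3:38452766-38453015, plus strand: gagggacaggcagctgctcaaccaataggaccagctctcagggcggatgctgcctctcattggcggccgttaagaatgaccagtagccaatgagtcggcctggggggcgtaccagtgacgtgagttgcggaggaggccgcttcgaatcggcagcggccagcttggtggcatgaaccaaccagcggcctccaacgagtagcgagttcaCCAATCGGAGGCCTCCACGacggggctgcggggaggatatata
Hspa1l, chr20:3860290-3860319, minus strand: gggcgtgtccggTGACGTgacccccctcca

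Hspa1l was lower with HNG. It stood at 2.10, 1.91, 1.95 and 1.63 CPM in AngII replicates 1 to 4 (80, 67, 64 and 61 reads). In the AngII+HNG libraries it stood at 0.996, 1.02, 0.907 and 1.55 CPM (28, 39, 30 and 55 reads). The groups did not overlap, although AngII+HNG replicate 4 came close to AngII replicate 4. The fitted change was a log2 fold change of -0.75 (SE 0.20, n = 4 per group), which corresponds to 1.69-fold lower expression and to a change of -40.7% with a 95% interval of -55.8% to -20.3%. The adjusted p-value was 0.0422 (edgeR, quasi-likelihood F test, Benjamini-Hochberg method over 14524 genes). The study picked this gene for qPCR from the same HNG comparison, so its direction here is not independent evidence.

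The call on Hspa1l rested on few reads and on single libraries. Over 18 alternative settings its log2 fold change stayed below 0, from -0.95 to -0.26, the weakest of them on the log2(FPKM + 1) scale, and its adjusted p-value by edgeR, DESeq2 or limma ran from 0.0161 to 0.133. It missed the threshold without AngII replicate 1 (edgeR, adjusted p = 0.133), replicate 2 (0.1004) or replicate 3 (0.0980), and without AngII+HNG replicate 1 (0.0910), replicate 2 (0.118) or replicate 3 (0.0878). It also missed the threshold when replicates 2 and 3 were summed (edgeR, adjusted p = 0.130) and with the replicate number as a block (0.0557), which makes 8 of 18 settings.

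With MOTS-c, Hspa1l stood at 1.36, 1.23, 1.30 and 1.26 CPM (47, 46, 37 and 41 reads). These 4 values were close to each other and lay below all 4 AngII libraries. The log2 fold change was -0.56 (95% interval -0.90 to -0.22, n = 4 per group), with an edgeR p-value of 0.00368 before and 0.924 after adjustment over 14488 genes, so it did not pass. The direct comparison of the peptides gave a log2 fold change of -0.20 for HNG against MOTS-c (95% interval -0.65 to 0.26, edgeR adjusted p = 0.659). That interval includes 0 and also a difference nearly as large as the one between HNG and AngII. Both peptide groups were set against the same AngII libraries, and the doses of the peptides differed.

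Hspa1l shares its place in the genome with another member. In RefSeq, Hspa1l and Hspa1a overlap on opposite strands, and the use of strand in counting is not given in the sources used here, so reads from the shared stretch cannot be assigned to either gene. The nearest tested neighbour, Lsm2, a subunit of a complex that binds U6 RNA and decaying mRNA, had a log2 fold change of -0.04 with HNG (95% interval -0.24 to 0.17) and of -0.08 with MOTS-c (95% interval -0.32 to 0.15).

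The identity of the row Hspa1b required a check of lengths. Counts divided by FPKM imply a gene length for each row. The length implied for the row Hspa1b exceeded that of Hspa1a in RefSeq by a ratio of 1.04 to 1.05, and that of Hspa1b in RefSeq by 1.72 to 1.73. A separate row, LOC108348108, carries the identifier that RefSeq now gives to Hspa1b, with a ratio of 1.04 to 1.05 to that gene. The row Hspa1b thus fits the length of Hspa1a, for which Hspa1b is a listed synonym. The genes are near-identical copies, both encode the stress-inducible HSP70, and the division of reads between them is uncertain, so both rows are given.

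Neither copy passed the test with HNG, and both had lower means. The row Hspa1b stood at 14.8, 14.6, 12.6 and 16.3 CPM with AngII and at 12.1, 11.8, 12.5 and 9.87 CPM with AngII+HNG. The groups were separate only narrowly, as AngII replicate 3 stood just above AngII+HNG replicate 3. Its log2 fold change was -0.33 (SE 0.10, 95% interval -0.54 to -0.13) with an edgeR adjusted p-value of 0.0612. Without AngII replicate 3 that p-value was 0.0442, and without AngII+HNG replicate 3 it was 0.0445. Over its 19 alternatives it ran from 0.0227 to 0.154 and passed in 5. LOC108348108 stood at 11.3, 11.8, 9.39 and 11.9 CPM against 8.995, 9.18, 8.88 and 7.96 CPM. These groups were also separate only narrowly, again with AngII replicate 3 the lowest of its group. It gave -0.34 (SE 0.09, edgeR adjusted p = 0.0510, and 0.0272 without AngII replicate 3). Over its 18 alternatives that p-value ran from 0.0192 to 0.147 and passed in 6. When the reads of both rows were summed, a choice made after the data were seen, the inducible pair gave -0.34 (SE 0.08, 95% interval -0.51 to -0.16) with an edgeR adjusted p-value of 0.0286.

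With MOTS-c the row Hspa1b stood at 12.2, 14.7, 13.2 and 13.9 CPM and LOC108348108 at 8.34, 10.1, 11.0 and 10.9 CPM. Both overlapped the AngII libraries. The summed pair had a log2 fold change of -0.12 (95% interval -0.30 to 0.05, edgeR adjusted p = 0.925) against AngII. HNG against MOTS-c gave -0.22 for the summed pair (95% interval -0.39 to -0.05, edgeR adjusted p = 0.152). Reads on Hspa1l amounted to 7.28% to 15.7% of those on the row Hspa1b in single libraries, with the highest share in AngII+HNG replicate 4. Over the 12 libraries log2 CPM of the row Hspa1b correlated with that of LOC108348108 at r = 0.89 and with that of Hspa1l at r = 0.34, a description over libraries that include the 3 treatments.

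**Figure D2:**
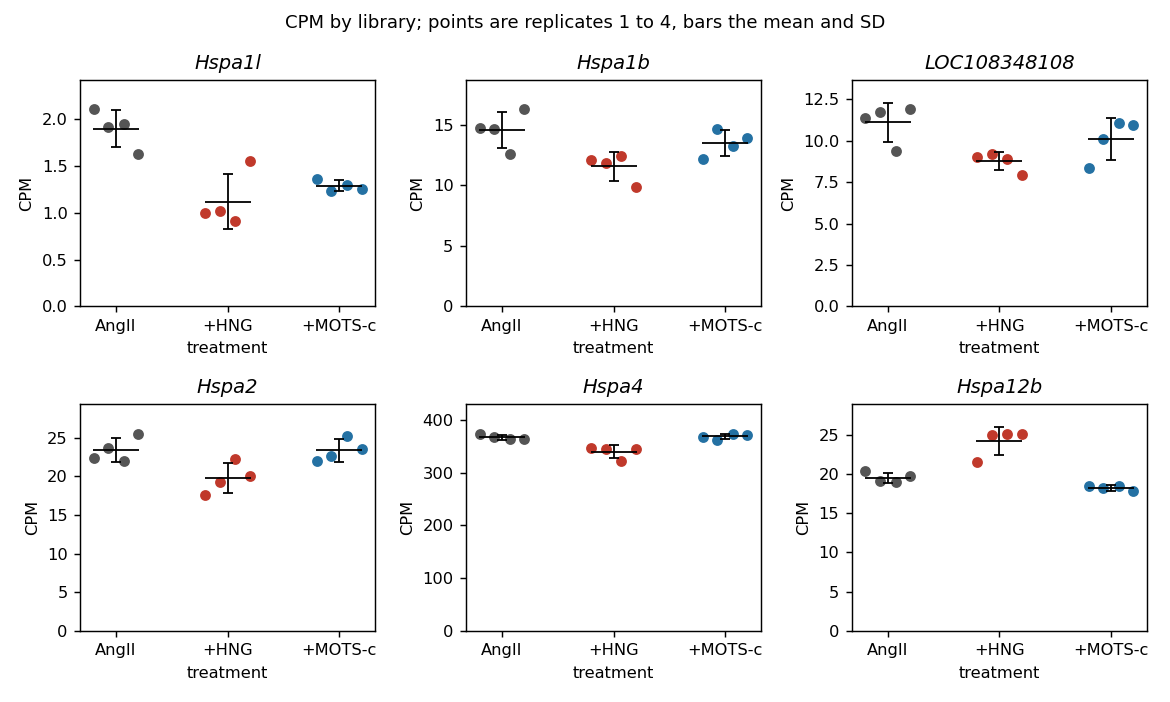
CPM of Hspa1l, the 2 copies of the inducible HSP70 gene, Hspa2, Hspa4 and Hspa12b in each library, with axes from 0, points for replicates 1 to 4 and bars for the mean and SD. Hspa1l, Hspa4 and, narrowly, both copies of the inducible gene lie below all AngII libraries with HNG. Hspa2 overlaps in AngII+HNG replicate 3, and Hspa12b with HNG lies above both other groups.

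Hspa2 and Hspa4 also had lower means with HNG, without passing the test. Hspa2 stood at 22.4, 23.7, 22.0 and 25.5 CPM with AngII, at 17.6, 19.3, 22.2 and 20.1 CPM with AngII+HNG and at 21.9, 22.6, 25.3 and 23.5 CPM with AngII+MOTS-c. AngII+HNG replicate 3 reached the range of both other groups. The log2 fold change was -0.24 against AngII (SE 0.08, edgeR adjusted p = 0.0904) and -0.24 against MOTS-c (SE 0.08, adjusted p = 0.103). Without AngII+HNG replicate 3 both passed, at edgeR adjusted p-values of 0.0236 and 0.0320. Over 18 alternatives Hspa2 passed in 1 against AngII and in 2 against MOTS-c. Hspa4 stood at 373, 368, 364 and 364 CPM with AngII, at 347, 346, 321 and 345 CPM with AngII+HNG and at 368, 362, 374 and 371 CPM with AngII+MOTS-c. The HNG libraries lay below all 8 others. The difference was small, at a log2 fold change of -0.11 against AngII (SE 0.04, a change of -7.33%, edgeR adjusted p = 0.105) and of -0.12 against MOTS-c (SE 0.04, adjusted p = 0.106). DESeq2 called both, at adjusted p-values of 0.0186 and 0.0184. Over 18 alternatives Hspa4 passed in 1 against AngII and in 2 against MOTS-c.

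The chaperones of the organelles and the abundant cytosolic chaperone were close to their AngII levels. Hspa9 stood at 619, 636, 631 and 619 CPM with AngII and at 597, 603, 587 and 600 CPM with AngII+HNG, which do not overlap, yet the log2 fold change was only -0.07 (95% interval -0.14 to 0.003, edgeR adjusted p = 0.270). Hspa13 stood at 32.3 to 33.3 CPM with AngII and at 29.3 to 32.0 CPM with AngII+HNG, at -0.09 (95% interval -0.20 to 0.01, adjusted p = 0.319). For Hspa5 the libraries ran from 1012 to 1077 CPM with AngII, from 959 to 1068 CPM with AngII+HNG and from 977 to 1062 CPM with AngII+MOTS-c. These overlapped, and the log2 fold changes were -0.05 with HNG (95% interval -0.14 to 0.04) and -0.02 with MOTS-c (95% interval -0.09 to 0.06). Hspa8 stood at 1297 to 1384 CPM with AngII, at 1337 to 1444 CPM with AngII+HNG and at 1193 to 1349 CPM with AngII+MOTS-c. Its log2 fold changes were 0.04 with HNG (95% interval -0.05 to 0.12) and -0.06 with MOTS-c (95% interval -0.14 to 0.03). RefSeq lists 33 pseudogenes named for Hspa8, none of them a row of the table, so its count may be affected by reads that match them.

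The remaining members were Hspa14 and Hspa12a. Hspa14 stood at 28.7 to 32.9 CPM with AngII and at 26.2 to 31.6 CPM with AngII+HNG, a log2 fold change of -0.10 (95% interval -0.24 to 0.04, edgeR adjusted p = 0.445). Hspa12a stood at 5.20 to 6.68 CPM with AngII and at 6.26 to 7.17 CPM with AngII+HNG, a log2 fold change of 0.16 (95% interval -0.07 to 0.38, adjusted p = 0.444). Both overlapped between the groups.

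**Figure D3:**
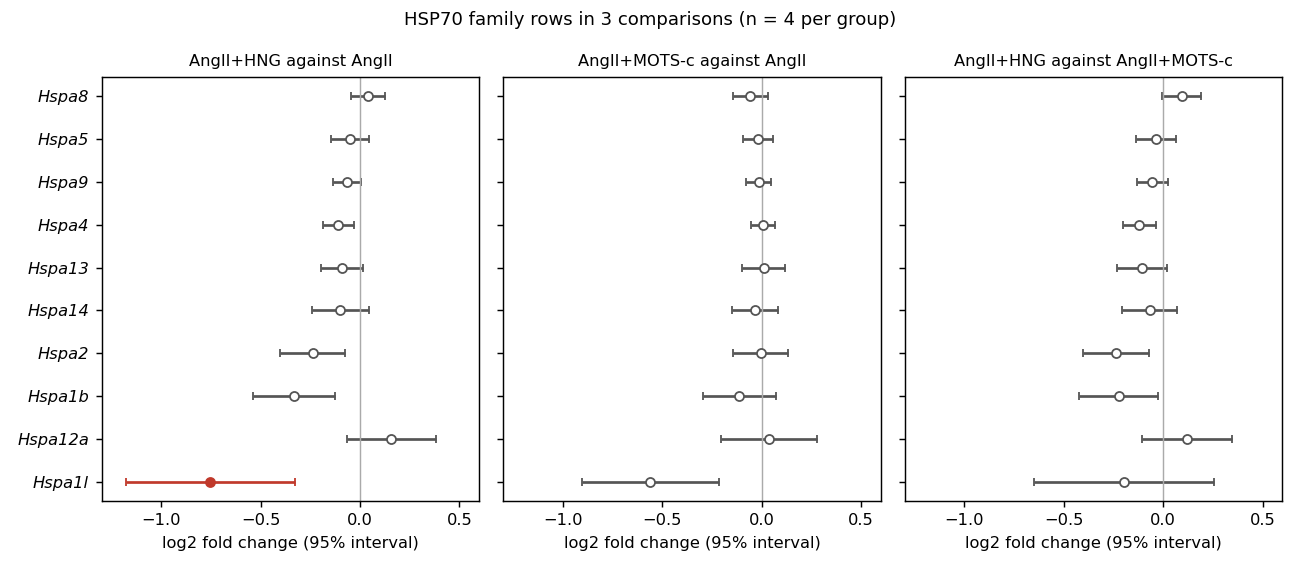
Log2 fold changes of the 10 family rows with 95% intervals in the 3 comparisons (4 libraries per group). The filled red point, Hspa1l with HNG against AngII, is the only one with an adjusted p-value below 0.05, and the intervals of Hspa1l are the widest in each panel.

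Counted over the family, 1 of 10 members passed the adjusted threshold with HNG, beside 5.98% of all 14524 tested genes. DESeq2 called 3 of 10, Hspa1l, Hspa1b and Hspa4, and it gave 1192 calls over all genes against 869 by edgeR. At an unadjusted edgeR p-value below 0.05 there were 4 of 10 members, beside 20.3% of all genes, and 5 of 10 had groups that did not overlap, beside 13.6%. Of the 10 members, 8 had a lower mean and 2 a higher one, and their median log2 fold change was -0.10 against 0.004 over all tested genes. With MOTS-c 0 of 10 members passed by edgeR or by DESeq2, beside 0.0069% of 14488 genes. Hspa1l alone had an unadjusted edgeR p-value below 0.05, beside 5.05% of all genes, and it alone had groups that did not overlap, beside 3.44%. The median of the members was -0.02 against -0.0008 over all genes. In the direct comparison of HNG with MOTS-c 0 of 10 members passed by edgeR, beside 4.41% of 14448 genes. DESeq2 called 1 member, Hspa4, and it gave 1034 calls over all genes against 637 by edgeR. There Hspa1b, Hspa2 and Hspa4 had an unadjusted edgeR p-value below 0.05, beside 19.3% of all genes, and Hspa4 was the 1 member without overlap, beside 12.5%.

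Relatives outside the 10 rows were led by Hspa12b, an atypical HSP70 gene known from endothelial cells. It rose with HNG. It stood at 20.4, 19.1, 18.9 and 19.7 CPM with AngII, at 21.6, 25.0, 25.2 and 25.2 CPM with AngII+HNG and at 18.5, 18.2, 18.5 and 17.8 CPM with AngII+MOTS-c. All 4 HNG libraries lay above the 8 others, and replicate 1 was the lowest of them. The log2 fold change was 0.31 against AngII (SE 0.06, edgeR adjusted p = 0.0104) and 0.41 against MOTS-c (SE 0.06, adjusted p = 0.00318), and both calls held in 18 of 18 alternatives. Of the 10 endothelial markers, 4 rose and 1, Flt1, fell with HNG against AngII at an edgeR adjusted p-value below 0.05. That stands beside 5.98% of all tested genes. By means 7 were higher and 3 lower, among them Erg at -0.30 (edgeR adjusted p = 0.191) and Emcn at -0.19 (0.699). Erg and Emcn did not pass. Kdr, a VEGF receptor, rose by 0.43 on the log2 scale, Tie1 by 0.42, Tek, the angiopoietin receptor, by 0.40 and Egfl7 by 0.39, while Flt1 fell by 0.31. The part of endothelial RNA in the change of Hspa12b was not tested. The HSP110-type genes Hspa4l, Hsph1 and Hyou1 did not pass in any comparison, with log2 fold changes of -0.27, -0.06 and -0.07 with HNG against AngII.

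Partner proteins of the HSP70 cycle were tested in the same fits, in which 5.98% of all genes passed with HNG against AngII. Of 42 J-domain proteins tested, 1 fell and 0 rose, a smaller share than over all genes. This was Dnajb4, a cytosolic partner of HSP70, which stood at 94.4, 98.3, 94.2 and 87.6 CPM with AngII and at 73.8, 73.1, 75.2 and 66.0 CPM with AngII+HNG. The groups were far apart, with a log2 fold change of -0.38 (SE 0.05, edgeR adjusted p = 0.00121), and the direct comparison with MOTS-c gave -0.32 (SE 0.05, adjusted p = 0.00213), with both calls held in 18 of 18 alternatives. Of 14 nucleotide exchange factors, 1 fell and 0 rose. This was Bag2, which also restrains the ubiquitin ligase CHIP, and it stood at 66.4, 66.1, 64.1 and 66.5 CPM with AngII and at 52.8, 55.8, 46.0 and 49.8 CPM with AngII+HNG. It gave -0.36 against AngII (SE 0.06, edgeR adjusted p = 0.00242) and -0.27 against MOTS-c (SE 0.06, adjusted p = 0.0230). The first call held in 18 of 18 alternatives and the second in 12. Among the 6 settings that lost the second were those without AngII+MOTS-c replicate 1 (edgeR, adjusted p = 0.0589), replicate 2 (0.0760) or replicate 3 (0.0518). Leaving out AngII+HNG replicate 4 (0.0687) was another. Both genes were larger in their counts than Hspa1l, with at least 1484 reads per library. The smooth muscle markers Cnn1, Mcam, Myh11, Tagln and Acta2 fell in the same comparison, by 0.41, 0.38, 0.34, 0.32 and 0.29 on the log2 scale, and their part in these 2 changes was not tested.

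The stress-response lists are read against the same shares over all genes. Of 24 heat shock response genes tested, a list that includes Hspa1b, 0 passed with HNG by edgeR beside 5.98% of all tested genes, 7 had an unadjusted p-value below 0.05 beside 20.3%, and the median log2 fold change was -0.06. Of 34 ER stress and folding genes, 1 rose and 0 fell, again a smaller share than the 5.98% over all genes. The riser was Sdf2l1, an ER protein found in complexes with Hspa5, at 13.3, 12.9, 12.4 and 12.2 CPM with AngII and 14.0, 15.5, 16.4 and 15.1 CPM with AngII+HNG. The groups did not overlap, with a log2 fold change of 0.27 (SE 0.07, edgeR adjusted p = 0.0438) and of 0.33 against MOTS-c (SE 0.08, adjusted p = 0.0310). The call against AngII held in 8 of 18 alternatives and was lost when any 1 library other than AngII+HNG replicate 1 was left out (edgeR, adjusted p = 0.0774 to 0.123), and the call against MOTS-c was lost in the same way (0.0606 to 0.0878). Of 13 genes of the CCT chaperonin, which folds actin and tubulin, and of prefoldin, 1 fell. Cct6a, a chaperonin subunit, stood at 167, 164, 166 and 161 CPM with AngII and at 151, 146, 144 and 145 CPM with AngII+HNG, a log2 fold change of -0.16 (SE 0.03, edgeR adjusted p = 0.0146). This call held in 15 of 18 alternatives and was lost without AngII replicate 1 (edgeR, adjusted p = 0.0602) or replicate 3 (0.0519) and with replicates 2 and 3 summed (0.0515). By edgeR none passed among 15 other cochaperones (3 at an unadjusted p-value below 0.05), 18 mitochondrial chaperones and proteases (1), 8 small heat shock proteins (3) and 10 genes of clathrin uncoating and chaperone-mediated autophagy (3), beside 5.98% and 20.3% of all genes at the adjusted and the unadjusted threshold. With MOTS-c against AngII 0 genes passed in any of these lists by edgeR, with 0 to 3 per list at an unadjusted p-value below 0.05, beside 5.05% of all genes.

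**Figure D4:**
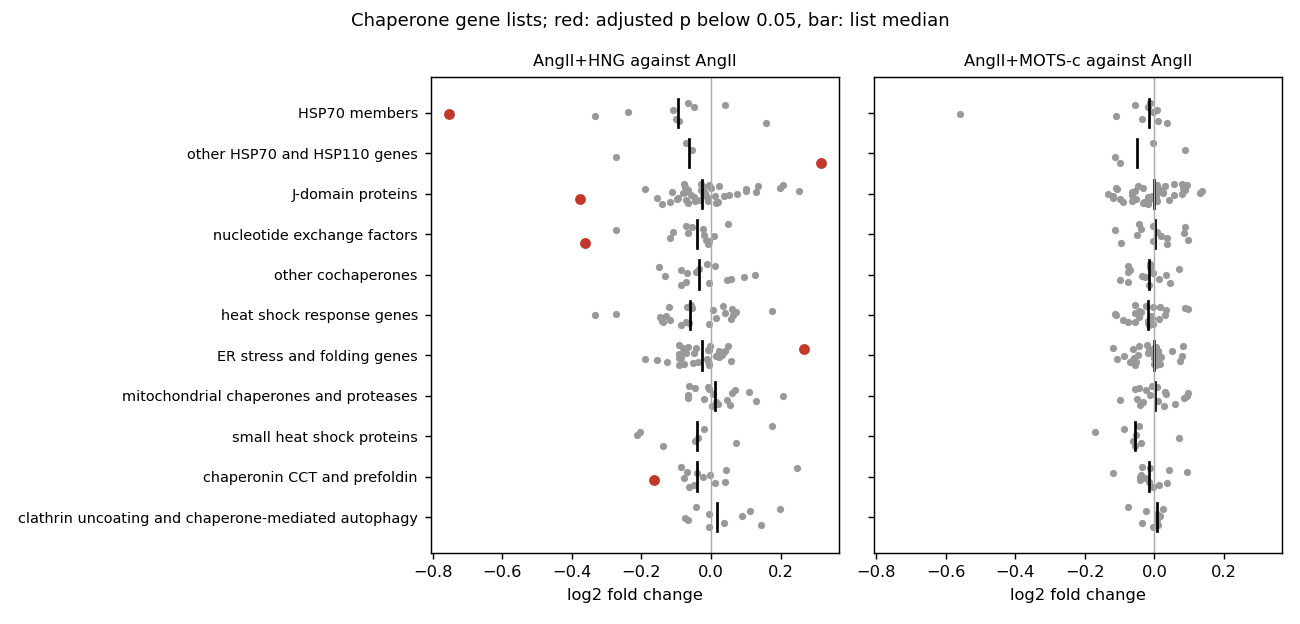
Log2 fold changes of the tested genes of 11 chaperone lists with HNG (left) and MOTS-c (right) against AngII, on the same horizontal scale. Each point is a gene, red marks an adjusted p-value below 0.05, and the bar is the list's median, and the 6 red points on the left are Hspa1l, Hspa12b, Dnajb4, Bag2, Sdf2l1 and Cct6a.

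The genes whose log2 CPM followed a member most closely over the 12 libraries were listed among 13083 genes as a description, since the libraries share the 3 treatments. For Hspa1l they were Lurap1l (r = 0.92), Prss23 (0.86), Wars1 (0.85), Pagr1 (0.85) and LOC120096294 (0.84). For the row Hspa1b they were Ociad1 (r = 0.94), Vasp (0.91), Bcat1 (0.91), Nucb2 (0.90) and Ciapin1 (0.90). Hspa5 was followed by Tbc1d31 (r = 0.86), Micb (0.83), Spaca6 (0.83), Arl16 (0.82) and Odf2 (0.81), and Hspa8 by Pomp (r = 0.91), Wdr31 (0.89), Cenpu (0.88), Mrps35 (0.87) and Rpsa (0.85). No gene appeared under more than 1 of these members. Between members the highest correlation was that of Hspa4 with Hspa9 (r = 0.81) and the lowest that of Hspa1b with Hspa12a (r = -0.65).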

How the data were processed

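From cultured cells 12 mRNA libraries were made and sequenced as paired-end reads on a DNBSEQ platform. The deposited counts are raw numbers of reads for each gene and library. The FPKM values made by the authors relate these counts to the length of the gene and the size of the library. The submitters' processing notes name HISAT2, Picard 1.41 and SAMtools 0.1.18 without saying how each was used. The genome build, annotation, counting tool and strand setting are not given in the sources used here, so coordinates are given only for RefSeq sequences of GRCr8.

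Groups and replicate numbers were taken from the sample titles, and doses and times from the study's methods. Counts were analysed with edgeR 4.0.16 in R 4.3.3 (filterByExpr, TMM, glmQLFit, glmQLFTest, Benjamini-Hochberg over all tested genes, threshold 0.05), each comparison on its own 8 libraries without a block. CPM are counts scaled by TMM-adjusted library totals, and likeness was computed on log2(CPM + 0.5) for genes of at least 1 CPM in the mean. Depth of 27960586 to 38322354 counts puts 3 counts at 0.0783 to 0.107 CPM, which covers counting error only. The computation was tested on simulated data.

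The alternatives were DESeq2 1.42.0, RLE size factors, no filter, at least 10 counts in every library, all 12 libraries in 1 fit, a block (replicate number or library-name number), replicates 2 and 3 summed, limma 3.58.1 on log2(FPKM + 1) or log2(FPKM + 0.1), and each library left out. For LOC108348108, Hspa12b, Dnajb4, Bag2, Sdf2l1 and Cct6a these alternatives were added after the data were seen, as was the sum of LOC108348108 and Hspa1b. Named were all members, genes of the lists with an adjusted p-value below 0.05 (at most 4 rises and 4 falls per list and comparison), the 5 genes most like Hspa1l, Hspa1b, Hspa5 and Hspa8, and neighbours of Hspa1l. LOC108348108, Hspa4l, Hsph1, Hyou1, the macrophage markers with lower means and the fifth marker of the smooth muscle list were named beside them, after their values were seen. Myh7, Erg and Emcn were added in the same way. The members and lists were chosen with earlier results of these data known.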

Additional observations from a re-analysis of the deposited data

Results flagged for a closer look

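Of 30 checks, 1 for each member in each group of 4 libraries, 1 met the criterion of a value far from its group, and chance alone flags about 1 in 20 such groups. Hspa4 stood at 321 CPM in AngII+HNG replicate 3, while the other 3 libraries of the group stood at 345 to 347 CPM, so the gap was 0.910 of the group's range.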

How the results depend on the processing

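Of the members, Hspa1l passed with HNG in 10 of 18 alternatives and Hspa1b in 5 of 19. The number of members called with HNG, 1 as reported, was 3 with DESeq2, 2 with all 12 libraries in 1 fit, 0 with replicates 2 and 3 summed and 0 to 2 with 1 library left out. For HNG against MOTS-c it was 1 with DESeq2, 1 with all 12 libraries in 1 fit and 0 to 1 with 1 library left out, and for MOTS-c against AngII it was 0 under every alternative. Over all genes, HNG gave 869 calls, 1192 with DESeq2, 1035 with all 12 libraries in 1 fit, 577 with replicates 2 and 3 summed and 431 to 932 with 1 library left out. MOTS-c gave 1 call, 4 with DESeq2, 0 with all 12 libraries in 1 fit or with replicates 2 and 3 summed and 0 to 3 with 1 library left out. HNG against MOTS-c gave 637 calls, 1034 with DESeq2, 975 with all 12 libraries in 1 fit and 322 to 625 with 1 library left out. The cause was not tested.

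Equal replicate numbers were not taken as pairs, since neither the labels nor the study's methods say that they share a cell preparation. Correlations of same-numbered deviations from the group means ran from -0.03 to 0.12 with HNG and from 0.02 to 0.13 with MOTS-c. Between the peptides they ran from -0.01 to 0.25, where 3 of 4 were over 0.1. These values do not settle whether preparations were shared. A library correlated best with its own number in 1 of 4 cases with HNG and in 3 of 4 in each of the other comparisons, a hint from the data and not from the design. With the replicate block the calls over all genes were 1111 with HNG, 2 with MOTS-c and 1054 for HNG against MOTS-c, those among the members were 0, 0 and 1, and the edgeR adjusted p-values with HNG were 0.0557 for Hspa1l and 0.0560 for Sdf2l1, neither of which passed.

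All changes of sign concerned MOTS-c against AngII and values near 0. The log2 fold change of Hspa2 was 0.00398 with the library-name block, 0.00398 on log2(FPKM + 1), 0.00441 on log2(FPKM + 0.1) and -0.0447 to 0.0387 with 1 library left out. Hspa12a gave -0.0285 with the library-name block and -0.0354 to 0.0998 with 1 library left out, and Hspa13 gave -0.00603 with replicates 2 and 3 summed and -0.0218 to 0.0512 with 1 left out. Leaving 1 out gave -0.000482 to 0.0164 for Hspa4 and -0.0321 to 0.00718 for Hspa5. Depth limits Hspa1l most, at 28 to 80 reads per library.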
